A study of Arabidopsis thaliana with 12 samples.

Results

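Cellobiose, the disaccharide unit of cellulose, and oligogalacturonides (OGs), chains of galacturonic acid from pectin, are both fragments of the plant's own wall. The probe sets described here stood higher in Arabidopsis thaliana roots after cellobiose but not after OGs. They were chosen from group means of log2 intensity. The cellobiose mean had to be at least 5 and to exceed both the control mean and the OGs mean by at least 0.6, and the OGs mean could exceed the control mean by at most 0.3. Of 22746 probe sets, 100 met these thresholds. Of those, 9 belonged to genes that were left out by name, among them AT5G08250 and AT1G74460, and 7 to class III peroxidases, also left out. The remaining 84 probe sets are the members. In the probe annotation used, 36 members carried exactly 1 gene, 3 carried several and 45 were not listed, so a peroxidase or a left-out gene among those 45 could not be recognised.

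Roots of 7-day-old Col-0 seedlings, grown through a nylon mesh, were sampled after 3 h with cellobiose, with chitin (oligomers of a fungal wall polymer), with OGs or with no elicitor (control). Each of the 4 groups had 3 biological replicates, with 1 Affymetrix ATH1 array per replicate. The roots of many seedlings were pooled in a replicate, and no dose was found in the labels. Because whole roots were measured, a change in the number of cells of a type and a change in RNA per cell cannot be told apart.

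Plant cells sense wall fragments and conserved microbial molecules through receptors at the cell surface. Cellooligomers, of which cellobiose is the shortest, are sensed by a receptor kinase with a malectin domain, and chitin by receptor kinases with LysM domains. Responses of roots to such signals include changes in phenolic and lipid polymers of the wall and the secretion of enzymes and small proteins that act on it.

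Replicate arrays had correlations of 0.992 to 0.997 over all probe sets. OGs replicate 3 stood apart in RNA quality: its GAPDH control probe sets were 1.46 (log2) brighter at the 3′ end than at the 5′ end. That value was 0.37 to 0.59 on the cellobiose arrays, 0.66 to 0.86 on the chitin arrays, 0.36 and 0.54 on the other OGs arrays and 0.73 to 0.83 on the control arrays. Without OGs replicate 3 the thresholds gave 78 probe sets, all of them members. Here and below, a gene counts as measured where the annotation paired a probe set with that gene alone. Other genes may be reported by probe sets that the annotation did not list. The 6 measured shoot markers, nuclear photosynthesis genes, had mean log2 levels of 6.93 to 7.88 on the cellobiose arrays, 6.16 to 7.36 on the chitin arrays and 7.05 to 8.04 on the OGs arrays, against 8.48 to 9.23 on the control arrays. All 6 had a mean above log2 5 in every group, and their part in the members' levels was not tested. Of root cell types, markers of root hairs (EXPA7 and EXPA18) and of the endodermis (AT1G61590 and GSO1) were measured and present in every group.

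The cellobiose minus control differences, which the thresholds used, had a median of 0.95 on the log2 scale and ran from 0.60 to 1.98, or 1.52-fold to 3.95-fold. Relative to each member's control mean, the median over the members was 0.99, 1.1 and 0.86 on cellobiose replicates 1, 2 and 3. It was 0.38, 0.40 and 0.40 on the chitin arrays, which the thresholds did not use. On OGs replicates 1, 2 and 3 it was -0.39, -0.055 and -0.31. So OGs replicate 2 lay near the control arrays while the other OGs arrays lay lower. Limma called 69 members higher than control and 70 higher than OGs after cellobiose, where 1.54 and 0.747 percent of all probe sets were, and the choice of members fixes these counts. The 3 cellobiose arrays lay above the 3 control arrays for 80 members (12.3 percent of all probe sets) and above the 3 OGs arrays for 82 (10.5 percent). The overlaps with control were AT4G12490, AT4G00910, 254053_s_at and 259813_at, and those with OGs were AT4G12490 and TPS-CIN.

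**Figure D1:**
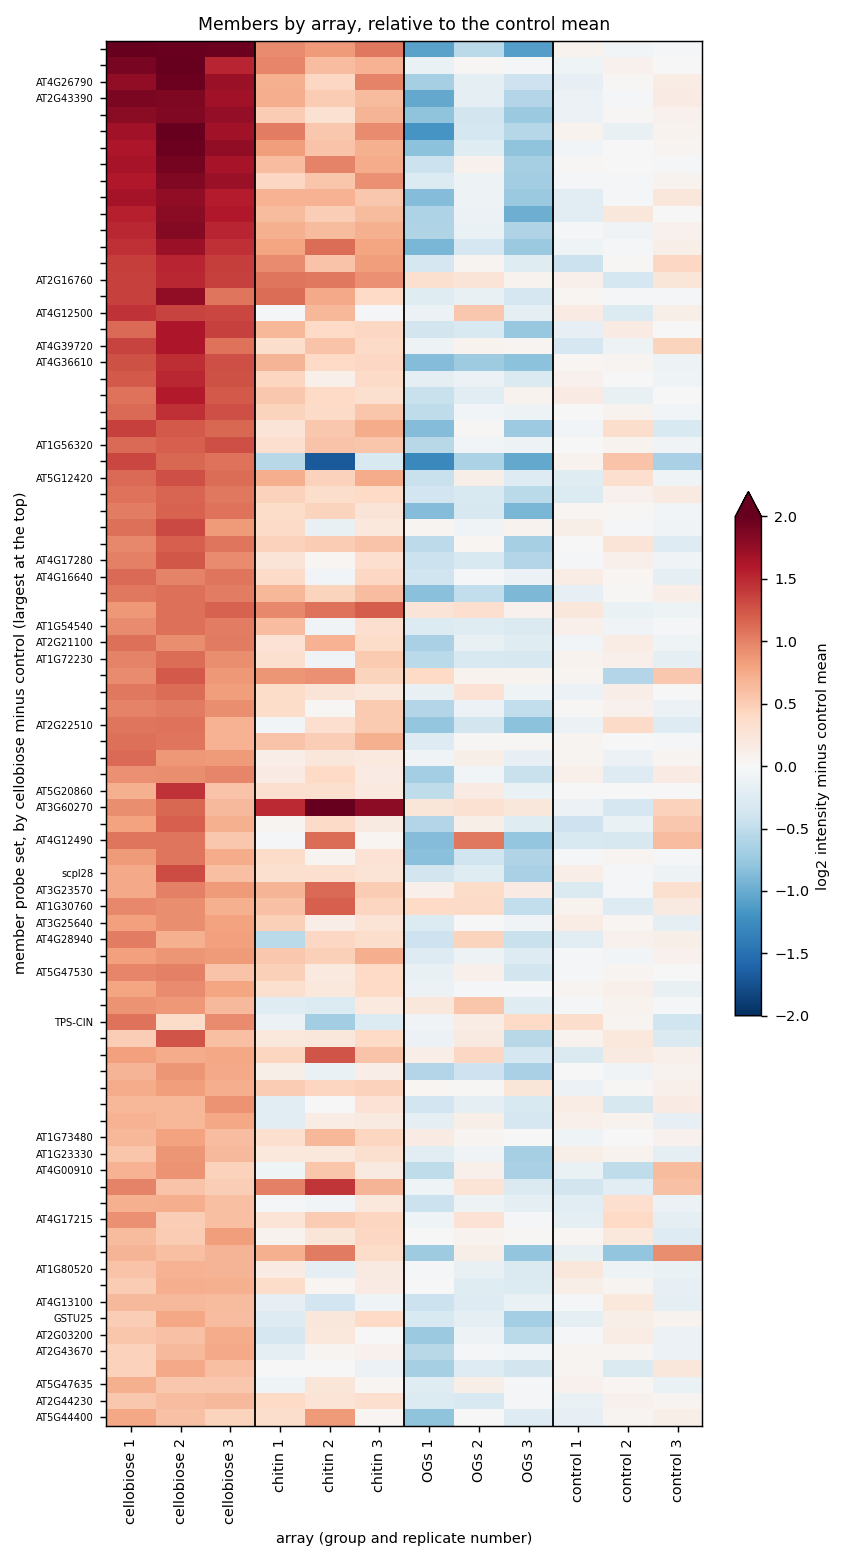
Each row is 1 of the 84 members and each column 1 array, ordered as cellobiose, chitin, OGs and control; colour gives the log2 intensity minus the member's control mean. The median over the members is 0.86 to 1.1 in the cellobiose columns, 0.38 to 0.40 in the chitin columns and -0.39 to -0.055 in the OGs columns.

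The members with 1 gene are described by protein family. The families were formed after the values had been seen, so a count of calls within a family describes these genes and was not tested as a group. After chitin, limma called 35 of all 84 members higher (41.7 percent), against 5.09 percent of all probe sets. The choice of members used the same control arrays and favours low control values, which favours a rise after chitin.

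Hydrolases and acyltransferases, enzymes that act on ester bonds and acyl groups, numbered 6. Limma called 5 of them higher after chitin, where 41.7 percent of all members and 5.09 percent of all probe sets were. The limits of this family are loose. AT5G20860 (a pectin methylesterase gene, not called) and AT2G16760 (of a phosphotriesterase family, called) were placed in other families. AT4G26790, which encodes a GDSL-type esterase or lipase, had log2 levels of 8.15, 8.34 and 8.10 after cellobiose, 7.08, 6.79 and 7.37 after chitin, and 5.70, 6.18 and 5.96 after OGs, against 6.20, 6.40 and 6.52 in controls. The 4 groups did not overlap. Its cellobiose mean was 8.19 ± 0.13 and its control mean 6.37 ± 0.16 (SD, n = 3 each), 3.54-fold. Chitin minus control was 0.71 ± 0.15 (SE, limma adjusted p = 0.0107). The call was lost without chitin replicate 1 and without control replicate 1 (adjusted p of up to 0.0528).

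AT4G36610, of the alpha/beta hydrolase family, had 10.06, 10.26 and 10.07 after cellobiose, 9.47, 9.19 and 9.20 after chitin, and 7.92, 8.08 and 7.97 after OGs, against 8.83, 8.84 and 8.69 in controls. Again the 4 groups did not overlap, and chitin minus control was 0.50 ± 0.095 (SE, limma adjusted p = 0.00642). AT5G12420 belongs to the family of wax ester synthases and diacylglycerol acyltransferases, which join fatty acids to alcohols. It had 9.46, 9.61 and 9.44 after cellobiose, 9.05, 8.79 and 9.07 after chitin, and 7.88, 8.45 and 8.07 after OGs, against 8.08, 8.65 and 8.24 in controls. Its OGs and control arrays overlapped, and its chitin arrays lay above all controls. Chitin minus control was 0.65 ± 0.15 (SE, limma adjusted p = 0.0163). The call was lost in 4 of 18 alternative settings, among them without chitin replicate 1, chitin replicate 3 or control replicate 1 (adjusted p of up to 0.116).

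The other alpha/beta hydrolase genes were AT3G23570, AT1G73480 and AT1G23330. AT3G23570 had 9.45, 9.69 and 9.54 after cellobiose, 9.38, 9.83 and 9.20 after chitin, and 8.79, 9.07 and 8.86 after OGs, against 8.41, 8.66 and 9.02 in controls. Its chitin and cellobiose arrays overlapped, and chitin minus control was 0.78 ± 0.15 (SE, limma adjusted p = 0.00658). AT1G73480 also rose after chitin, by 0.48 ± 0.095 (SE, limma adjusted p = 0.00786). For AT1G23330 the difference was 0.24 ± 0.13 (SE, limma adjusted p = 0.310), although its 3 chitin arrays lay above its 3 control arrays. With only the chitin and control arrays fitted, the calls of AT4G36610, AT3G23570 and AT1G73480 were lost (adjusted p of 0.0506, 0.101 and 0.0622).

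Proteins of the cell wall made up 6 members. AT2G21100 encodes a dirigent protein, a family that guides the coupling of phenolic radicals. It had 8.83, 8.66 and 8.78 after cellobiose, 8.02, 8.44 and 8.10 after chitin, and 7.08, 7.58 and 7.50 after OGs, against 7.68, 7.88 and 7.65 in controls. The 4 groups did not overlap, and chitin minus control was 0.45 ± 0.12 (SE, limma adjusted p = 0.0409). That call was lost in 10 of 18 alternative settings, with an adjusted p of up to 0.190. AT5G20860, a pectin methylesterase gene, had 5.38, 6.12 and 5.24 after cellobiose, 5.0, 4.99 and 4.87 after chitin, and 4.16, 4.83 and 4.54 after OGs, against 4.67, 4.67 and 4.66 in controls. Its cellobiose difference was larger on replicate 2 than on the other arrays. All its OGs and control arrays lay under log2 5, the level required of the cellobiose mean. Of all 84 members, 8 had a control mean under log2 5.

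The other wall proteins were AT2G22510, a hydroxyproline-rich glycoprotein, AT4G17215 and AT5G47635, of the Ole e 1 and extensin family, and AT2G43670, which holds an X8 carbohydrate-binding domain. Their cellobiose minus control differences were 0.95, 0.67, 0.60 and 0.62. AT4G17215 came nearest to a call for chitin, with a difference of 0.40 ± 0.16 (SE, limma adjusted p = 0.15). AT2G43670 had 6.01, 6.19 and 6.31 after cellobiose, 5.37, 5.61 and 5.64 after chitin, and 4.99, 5.52 and 5.5 after OGs, against 5.61, 5.61 and 5.43 in controls. Its chitin, OGs and control arrays overlapped.

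Redox proteins numbered 7, with cellobiose minus control differences of 0.60 to 1.07. AT3G60270, a blue copper protein (cupredoxin) gene, had 6.22, 6.45 and 5.95 after cellobiose, 6.79, 7.69 and 7.09 after chitin, and 5.54, 5.61 and 5.53 after OGs, against 5.18, 4.96 and 5.76 in controls. All 3 chitin arrays lay above all 3 cellobiose arrays, which no other member showed (10.7 percent of all probe sets did). Chitin minus control was 1.89 ± 0.23 (SE, limma adjusted p = 0.000422), the largest among the members. The other cupredoxin gene, AT1G72230, had 9.52, 9.65 and 9.47 after cellobiose, 8.85, 8.47 and 9.06 after chitin, and 7.99, 8.23 and 8.22 after OGs, against 8.61, 8.64 and 8.36 in controls. Its chitin and control arrays overlapped, and chitin minus control was 0.26 ± 0.15 (SE, limma adjusted p = 0.360).

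AT4G17280 and AT5G47530 encode proteins with a DOMON domain and a cytochrome b561 domain, a class that carries electrons across membranes. AT4G17280 had 9.63, 9.85 and 9.56 after cellobiose, 8.87, 8.66 and 8.95 after chitin, and 8.19, 8.31 and 8.03 after OGs, against 8.58, 8.72 and 8.55 in controls. Every OGs array lay below every control array, and chitin minus control was 0.21 ± 0.11 (SE, limma adjusted p = 0.292). For AT5G47530 cellobiose minus control was 0.85 and chitin minus control 0.35 ± 0.13 (SE, limma adjusted p = 0.111). AT1G30760 and AT5G44400 are berberine bridge enzyme-like oxidase genes. They differed from control by 0.87 and 0.60 after cellobiose. Chitin minus control was 0.73 ± 0.22 (SE, limma adjusted p = 0.0574) for AT1G30760 and 0.41 ± 0.19 (SE, limma adjusted p = 0.231) for AT5G44400. GSTU25, a glutathione S-transferase gene, had 8.83, 9.11 and 8.97 after cellobiose, 8.09, 8.57 and 8.75 after chitin, and 8.04, 8.17 and 7.66 after OGs, against 8.15, 8.46 and 8.42 in controls. Its cellobiose arrays lay above every other array, and chitin minus control was 0.13 ± 0.15 (SE, limma adjusted p = 0.715).

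**Figure D2:**
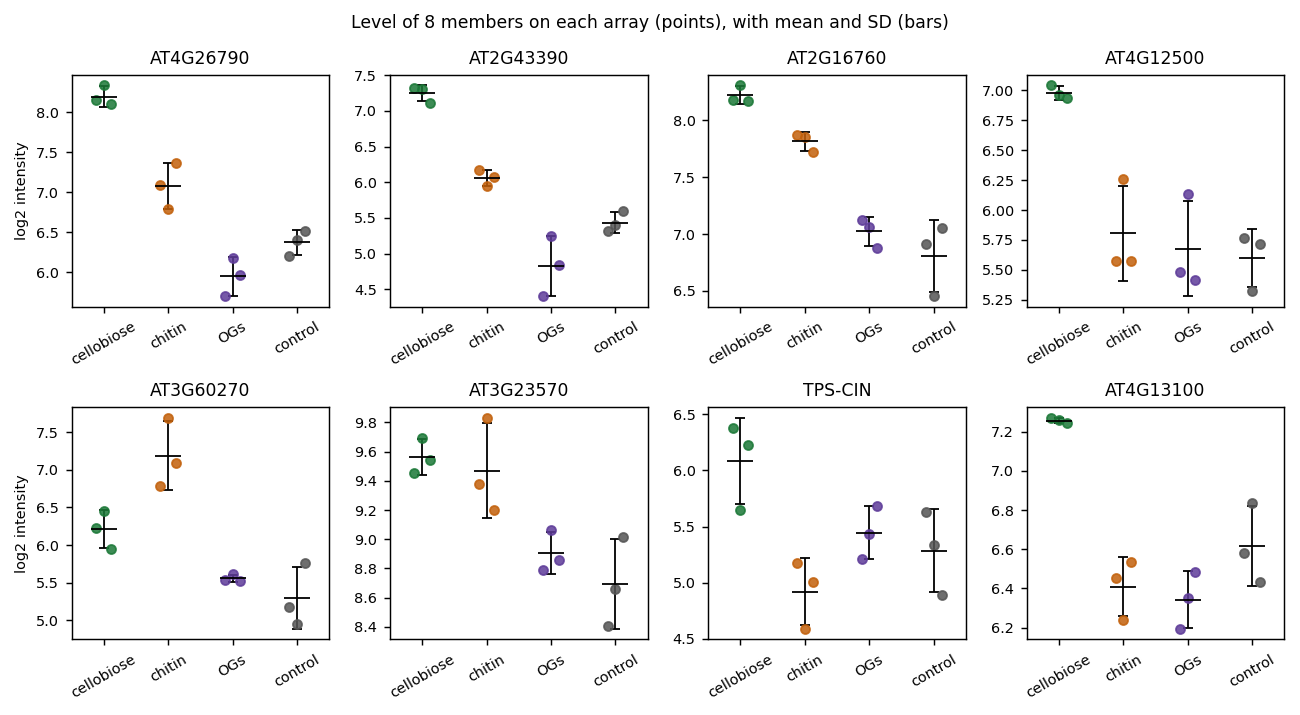
Log2 intensity of 8 members on each array (points) in the cellobiose, chitin, OGs and control groups, with the mean and SD of 3 arrays; the vertical axes differ between panels and do not start at 0. AT4G26790 shows 4 groups that do not overlap, with cellobiose at 8.10 to 8.34 and control at 6.20 to 6.52.

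AT4G12500 and AT4G12490 encode small secreted proteins of the lipid transfer and protease inhibitor family and lie close together on chromosome 4, with 1 annotated gene between them. AT4G12500 had 7.04, 6.96 and 6.93 after cellobiose, 5.58, 6.26 and 5.58 after chitin, and 5.48, 6.13 and 5.42 after OGs, against 5.76, 5.32 and 5.71 in controls. The cellobiose arrays lay above all others, and the chitin, OGs and control arrays overlapped. AT4G12490 had 9.26, 9.27 and 8.73 after cellobiose, 8.16, 9.32 and 8.23 after chitin, and 7.33, 9.25 and 7.42 after OGs, against 7.90, 7.88 and 8.81 in controls. Here all groups overlapped, since chitin replicate 2, OGs replicate 2 and control replicate 3 lay above cellobiose replicate 3. Chitin replicate 2 and OGs replicate 2 were the highest arrays of their groups for both genes. Chitin minus control was 0.21 ± 0.21 (SE, limma adjusted p = 0.655) for AT4G12500 and 0.38 ± 0.41 (SE, limma adjusted p = 0.691) for AT4G12490.

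Of 3 proteases, limma called 0 for chitin, where 41.7 percent of all members and 5.09 percent of all probe sets were called higher. At an unadjusted p under 0.05, 1 (scpl28) was higher, as were 49 of all 84 members and 8.9 percent of all probe sets. With 3 genes these counts do not set proteases apart from other members. AT4G16640, a matrix metalloproteinase gene, had 6.52, 6.38 and 6.46 after cellobiose, 5.77, 5.34 and 5.81 after chitin, and 5.0, 5.36 and 5.27 after OGs, against 5.53, 5.43 and 5.20 in controls. Its cellobiose arrays lay above all others. The gene scpl28, for a serine carboxypeptidase-like protein, had 8.07, 8.62 and 7.92 after cellobiose, 7.64, 7.65 and 7.59 after chitin, and 6.94, 7.07 and 6.67 after OGs, against 7.45, 7.28 and 7.22 in controls. Its 4 groups did not overlap, and chitin minus control was 0.31 ± 0.13 (SE, limma adjusted p = 0.179). AT2G03200, an aspartyl protease gene, stood at 0.63 after cellobiose and -0.037 ± 0.13 (SE, limma adjusted p = 0.918) after chitin.

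Genes of regulation, membranes and transport made up 6 members. Limma called 0 of them for chitin, where 41.7 percent of all members and 5.09 percent of all probe sets were called higher. AT4G39720, AT1G54540 and AT3G25640 were higher at an unadjusted p under 0.05, as were 49 of all 84 members and 8.9 percent of all probe sets. AT4G39720, which encodes a protein with a VQ motif, a family that partners WRKY transcription factors, had 6.70, 6.97 and 6.44 after cellobiose, 5.69, 5.91 and 5.73 after chitin, and 5.25, 5.42 and 5.39 after OGs, against 5.01, 5.24 and 5.79 in controls. Control replicate 3 lay among its chitin arrays, and chitin minus control was 0.43 ± 0.17 (SE, limma adjusted p = 0.152). AT4G13100, a RING-type zinc finger gene, had 7.27, 7.26 and 7.24 after cellobiose, 6.45, 6.24 and 6.54 after chitin, and 6.19, 6.35 and 6.48 after OGs, against 6.58, 6.84 and 6.43 in controls. Its cellobiose arrays lay within 0.1 of each other and above every other array, and chitin minus control was -0.21 ± 0.12 (SE, limma adjusted p = 0.368).

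AT1G54540, a late embryogenesis abundant-type glycoprotein gene, differed from control by 1.03 after cellobiose and 0.29 ± 0.13 (SE, limma adjusted p = 0.213) after chitin. AT3G25640, of the family with a DUF617 domain, stood at 0.86 after cellobiose and 0.30 ± 0.12 (SE, limma adjusted p = 0.151) after chitin. AT1G80520 encodes a sterile alpha motif protein, with 0.65 after cellobiose and 0.048 ± 0.12 (SE, limma adjusted p = 0.882) after chitin. AT4G00910, of the aluminium-activated malate transporter family, had 6.92, 7.13 and 6.69 after cellobiose, 6.14, 6.79 and 6.41 after chitin, and 5.72, 6.34 and 5.58 after OGs, against 6.10, 5.73 and 6.87 in controls. Control replicate 3 lay above cellobiose replicate 3.

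Among genes of other metabolism, AT2G16760, of the calcium-dependent phosphotriesterase family, had 8.18, 8.31 and 8.17 after cellobiose, 7.87, 7.86 and 7.72 after chitin, and 7.13, 7.07 and 6.88 after OGs, against 6.91, 6.45 and 7.05 in controls. The chitin arrays lay below the cellobiose arrays and above all the rest. Chitin minus control was 1.01 ± 0.14 (SE, limma adjusted p = 0.000903). TPS-CIN, a synthase of the monoterpene 1,8-cineole, had 6.38, 5.65 and 6.23 after cellobiose, 5.17, 4.59 and 5.01 after chitin, and 5.21, 5.43 and 5.69 after OGs, against 5.63, 5.33 and 4.89 in controls. Cellobiose replicate 2 lay below OGs replicate 3, and chitin minus control was -0.36 ± 0.21 (SE, limma adjusted p = 0.360). TPS-CIN has a near-identical neighbouring copy, so its probe set may report both. AT4G28940, of the phosphorylase family, stood at 0.85 after cellobiose and 0.080 ± 0.23 (SE, limma adjusted p = 0.903) after chitin.

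For AT2G43390, AT1G56320 and AT2G44230 no role is given here. AT2G43390 had 7.32, 7.30 and 7.12 after cellobiose, 6.17, 5.94 and 6.07 after chitin, and 4.41, 5.24 and 4.84 after OGs, against 5.31, 5.40 and 5.59 in controls. Its 4 groups did not overlap, and chitin minus control was 0.63 ± 0.17 (SE, limma adjusted p = 0.0372). For AT1G56320 chitin minus control was 0.49 ± 0.10 (SE, limma adjusted p = 0.0114) and for AT2G44230 0.34 ± 0.089 (SE, limma adjusted p = 0.0334). Of 18 alternative settings, the call was lost in 7 for AT2G43390, in 1 for AT1G56320 and in 8 for AT2G44230, with adjusted p of up to 0.159, 0.0538 and 0.160. The member with the largest cellobiose minus control difference, 250541_at, was not listed in the annotation. It had 9.91, 9.88 and 9.86 after cellobiose, 8.84, 8.75 and 8.95 after chitin, and 6.83, 7.35 and 6.79 after OGs, against 7.96, 7.85 and 7.88 in controls. The 4 groups lay apart from one another.

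The chitin arrays played no part in the choice of members, so chitin minus control was tested, but it shares the control arrays that the choice used. The choice favours probe sets with low control values, which raises chitin minus control and makes a fall less likely. By limma 35 members rose after chitin and 0 fell, where 5.09 percent of all probe sets rose and 5.94 percent fell (11.0 percent in all). At an unadjusted p under 0.05, 49 members were higher and 1, 250474_at, was lower, where 8.9 and 13.7 percent of all probe sets were. The median over the members was 0.39, against -0.025 over all probe sets. The 3 chitin arrays lay above the 3 control arrays for 47 members and below them for 0, as for 10.7 and 15.0 percent of all probe sets. The count of 35 was 18 without chitin replicate 1, 22 without chitin replicate 3, 18 without control replicate 1, 19 without control replicate 2 and 17 with only the chitin and control arrays fitted. In the same settings the count over all probe sets, in either direction, also fell, from 2507 to 2024, 2128, 1925, 1662 and 1088. Over the 18 settings 10 members were called each time they were tested, among them AT3G60270 and AT2G16760.

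In size, the chitin difference of a member was 35.3 percent of its cellobiose difference at the median, with quartiles of 23.4 and 49.4 percent. The chitin mean lay between the OGs and cellobiose means for 78 of 84 members, and the order cellobiose, chitin, control, OGs from high to low held for 60. It lay above the cellobiose mean for AT3G60270, 255319_at, 254053_s_at and 259813_at, and below the control mean for 7, of which TPS-CIN, AT4G13100, AT2G03200 and AT2G43670 had 1 gene. Limma called 56 members lower after chitin than after cellobiose and 1, AT3G60270, higher (2.51 and 2.93 percent of all probe sets), and 44 higher after chitin than after OGs (2.15 percent). The cellobiose arrays lay above the chitin arrays for 69 members (18.6 percent). These comparisons use arrays that chose the members and are given as a description. Among the left-out genes that met the thresholds, limma called 5 of 9 named genes and 5 of 7 peroxidases higher after chitin (5.09 percent of all probe sets). Their median differences were 0.41 and 1.00. They met the same thresholds on the same control arrays as the members, and their difference from the members was not tested.

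**Figure D3:**
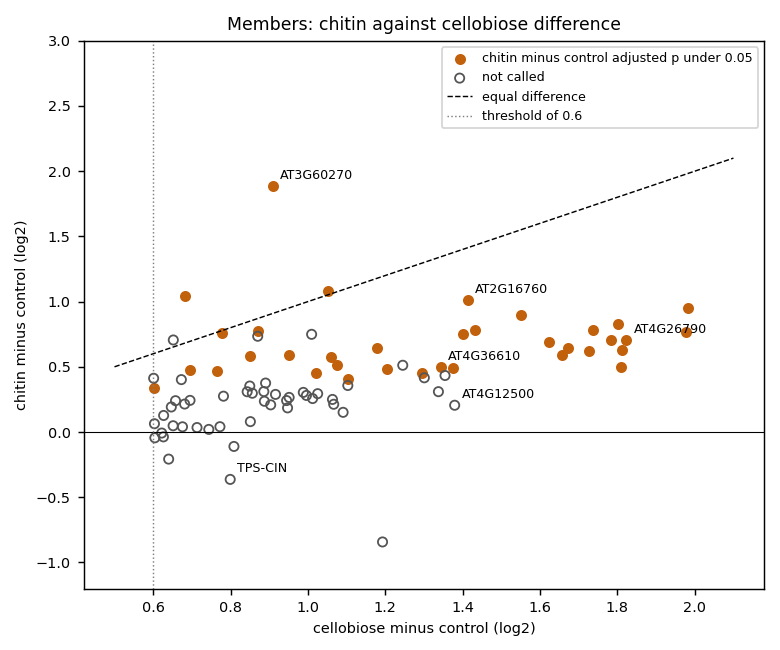
Each point is 1 member, with cellobiose minus control (log2) on the horizontal axis and chitin minus control (log2) on the vertical axis; filled points had a limma adjusted p under 0.05 for chitin. Both differences share the control arrays; 80 of the 84 points lie below the dashed line of equal differences, and AT3G60270 lies above it at 1.89.

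To describe the difference on arrays that had not chosen the probe sets, the thresholds were applied to 2 replicate numbers at a time and the values were read in the number left out. Leaving out numbers 1, 2 and 3 in turn chose 89, 98 and 77 probe sets, of which 75, 77 and 66 were members. Their median cellobiose minus control in the left-out arrays was 0.98, 0.98 and 0.89, against -0.057, 0.025 and 0.028 over all probe sets. It was at least 0.6 for 74.2, 72.4 and 72.7 percent of the chosen probe sets and for 1.86, 2.29 and 2.29 percent of all. Median chitin minus control was 0.34, 0.27 and 0.40, against -0.069, 0.0012 and -0.0090 over all probe sets. Median OGs minus control was -0.37, -0.089 and -0.46, against -0.052, 0.0099 and 0.019 over all probe sets. No test was made on these values.

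**Figure D4:**
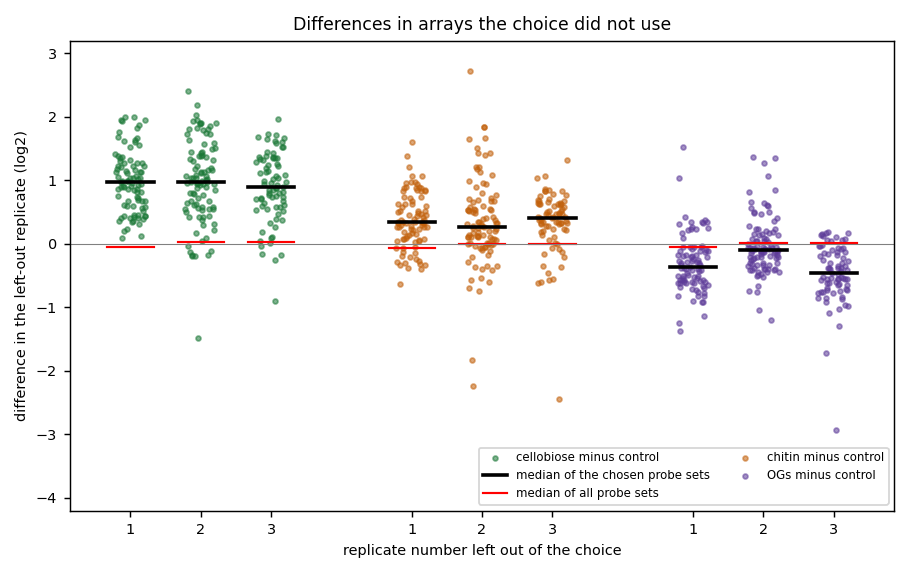
Log2 differences between arrays of the replicate number left out of the choice, for each probe set chosen on the other 2 numbers (points), with medians of the chosen and of all probe sets as bars. The medians of the chosen probe sets stand at 0.89 to 0.98 for cellobiose, 0.27 to 0.40 for chitin and -0.46 to -0.089 for OGs.

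OGs minus control was part of the choice and is given as a description. It ran from -0.98 to 0.26 with a median of -0.24, and 67 members lay below their control mean, 36 of them by more than 0.3. The 3 OGs arrays lay below the 3 control arrays for 26 members (8.72 percent of all probe sets). Limma called 9 members lower and 0 higher (1.04 and 1.61 percent of all probe sets). At an unadjusted p under 0.05 these counts were 37 and 0 (8.91 and 7.72 percent of all probe sets). Of the 9, AT4G36610 (-0.80 ± 0.095 SE) was the one with a gene.

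At the limit on cellobiose minus control, AT5G44400 and AT2G44230 lay just inside at 0.60, and AT2G48080 and 249289_at just outside at 0.59. For cellobiose minus OGs, AT4G17215 and AT1G73480 stood inside at 0.62, and AT3G16330 and AT3G26460 outside at 0.52. For OGs minus control, AT3G60270 (0.26) and 255319_at (0.23) were inside, and 253088_at (0.35) and AT3G09405 (0.42) outside. For the cellobiose mean, AT5G47635 (5.12) and 255319_at (5.29) were inside, and 249474_s_at (4.85) and 260091_at (4.83) outside. The limit on cellobiose minus control alone kept out 78 further probe sets.

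Of the genes next to a member on the chromosome, 31 were measured and were no members. After cellobiose limma called 1 of them higher and 0 lower (1.54 and 0.725 percent of all probe sets), with a median difference of 0.019. It was ETFQO, an electron transfer enzyme gene of mitochondria beside AT2G43390, at 0.64 (limma adjusted p = 0.00265). ETFQO had means of 8.24 after cellobiose and 7.83 after OGs, against 7.60 in controls.

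None of the 36 members with 1 gene was in the lists for suberin, the Casparian strip, lignin, hormones or early elicitor responses. The 45 members not listed in the annotation could match no list, and few genes of most lists were measured. So it is not known whether the members hold further genes of these lists. For suberin, the lipid and phenolic polymer of root barriers, the annotation paired 5 of 38 genes with a probe set. All 5 are genes left out by name. Limma called 3 of them higher after cellobiose (1.54 percent of all probe sets were), with a median difference of 0.78. All 5 were higher at an unadjusted p under 0.05, as were 1997 of all 22746 probe sets. All but FACT met the thresholds of the members, so these 5 are no independent sample of suberin genes. Of 3 measured Casparian strip genes, limma called 0 after cellobiose. At an unadjusted p under 0.05 there was 1, AT1G61590 (SGN1), a kinase gene of strip formation, at 0.39 ± 0.10 (SE, limma adjusted p = 0.0869). Of 2 measured lignin genes, HCT and CCR2, 0 were called after cellobiose, also at an unadjusted p under 0.05. Of 6 early elicitor genes, limma called 0 after cellobiose (1 at an unadjusted p under 0.05). After chitin it called 5 higher and 1 lower (5.09 and 5.94 percent of all probe sets). AT1G56145, the malectin receptor kinase gene known for sensing cellooligomers, was higher than control by 0.44 after cellobiose, 0.80 after chitin and 0.59 after OGs (limma adjusted p = 0.0401, 0.000313 and 0.0105). It was no member, with means of 8.30 after cellobiose and 8.45 after OGs, against 7.86 in controls.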

How the data were processed

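The authors deposited log2 intensities per probe set, which were used as given. Array medians ran from 6.30 on control replicate 2 to 6.41 on cellobiose replicate 3. The series design text names GCRMA, and the submitters' processing notes name Affymetrix Expression Console. The sources used here do not say which produced the values. Such normalization hides a shift shared by all transcripts. Of 22810 probe sets, 64 manufacturer controls were left out. In the annotation 13513 had 1 gene, 503 several and 8730 were not listed. No sequence was used here.

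Limma 3.58.1 in R 4.3.3 fitted all 12 arrays at once (lmFit, eBayes), by group and replicate number. P-values were Benjamini-Hochberg adjusted over 22746 probe sets and called under 0.05. The replicate number entered because the design text took ratios within sample pairs. Same-numbered arrays of different groups did not clearly deviate together (r of -0.23 to 0.25, over 0.1 in 6 of 18 pairs). For arrays with different numbers r was -0.36 to 0.44, over 0.1 in 11 of 36 pairs. The fit was tested on simulated data for chitin minus control. Log2 changes of 0.5, 1, 1.5 and 2 were each put into 50 probe sets. The fit recovered 19 of those of 0.5 and 47 of those of 1, with 13 false calls among all unchanged probe sets. So a member that was not called may still differ by about 0.5. The simulation held no replicate effect and changed far fewer probe sets than the 2507 called here. Its recovered shares may therefore not carry over to the members. P-values measure the spread between the labelled biological replicates, and the number of arrays limits precision.

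Members, lists and tests were chosen with earlier results of these data known, and families were assigned to members after their values were seen. All 36 members with 1 gene are named, with the largest member, the exceptions and the probe sets at each limit. Alternatives were quantile normalization, median centring, a filter at log2 5, no replicate block, chitin and control arrays only, an intensity trend, and each array left out. The lists for cutin and wax, abscisic acid, jasmonate, ethylene, salicylate, sugar response, xylem, phloem and root cap had 0 to 2 measured genes and 0 calls after cellobiose.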

Additional observations from a re-analysis of the deposited data

How the results depend on the processing

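The number of members was 77 to 96 with a cellobiose, OGs or control array left out, 76 under quantile normalization, 72 under median centring, 74 with a cellobiose mean of at least log2 6 and 77 with OGs minus control at most 0.15. The count of members called for chitin, and of those higher, was 18 to 37 with each array left out and 17 with only the chitin and control arrays. The count of members lower was 0 to 1. Over all probe sets the count was 1540 to 2640 with an array left out, and 1088 with only those 2 groups, a fit with fewer arrays. The members' median was 0.35 to 0.45. Without the replicate block 33 members were called, 32 of them among the 35, and 2698 probe sets in all. The held-out chitin minus control median, 0.34 as the middle of 3, was 0.43 under quantile normalization and 0.45 under median centring; the cause was not tested. Among the 36 members with 1 gene, chitin minus control of 9, none of them called, crossed 0 with an array left out; the remaining members were not all examined in this way. It ran from -0.083 to 0.35 for AT4G12500, -0.15 to 0.90 for AT4G12490, -0.095 to 0.33 for AT4G28940, -0.21 to 0.62 for AT4G00910, -0.057 to 0.16 for AT1G80520, -0.049 to 0.28 for GSTU25, -0.11 to 0.056 for AT2G03200, -0.13 to 0.13 for AT2G43670 and -0.0010 to 0.15 for AT5G47635. For AT2G43670 it was 0.025 under quantile normalization and 0.024 under median centring.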
